A study of Homo sapiens with 4 samples.

Results

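The subunits of the hypoxia-inducible factors (HIF) and the enzymes that tie them to oxygen were followed by RNAseq in melanoma spheroids, in the core and in the invasion zone. The 10 genes were taken by name from a count table of 56304 genes, namely the alpha subunits HIF1A, EPAS1 and HIF3A, the beta subunits ARNT and ARNT2, the prolyl hydroxylases EGLN1, EGLN2 and EGLN3, the asparaginyl hydroxylase HIF1AN, and VHL. All samples were MV3 cells, an established human line of highly metastatic melanoma, which carried H2B-GFP as a nuclear label. Spheroids of 50000 cells and 1 mm in diameter were embedded in collagen I and dissected at day 2, when the core was taken by a 1 mm biopsy punch and the cells that had invaded around it by a 3 mm one. Each zone has 2 libraries, named replicate 1 and replicate 2. The study is limited to a single cell line, how many spheroids entered a library is not given in the sources used here, and, as the study points out, a punch from above can leave cells that invaded upward or downward in the core sample.

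Depth ranged from 11789243 to 37591782 counts per library, and both replicate 2 libraries were the shallower ones. Levels are given as CPM, the counts of a gene over the total counts of its library on the usual scale. Of the 11 melanocyte and melanoma markers examined, SOX10 and TYR had 0 counts in all 4 libraries and MITF had between 1.70 and 3.39 CPM, whereas AXL, a receptor of dedifferentiated melanoma, had between 623 and 1220 CPM, so the label of melanoma was not met by the pigment lineage markers. The melanoma markers CSPG4 (36.2 to 51.7 CPM) and MCAM (18.2 to 31.6 CPM) were detected in every library. Under 1 CPM in every library were 6 of the 11 markers. The 11 markers summed to 682 and 711 CPM in the core and to 1297 and 1219 CPM in the invasion zone, most of the difference being that of AXL. The 4 leukocyte markers summed to at most 1.57 CPM in a library, with CD3E at 0. The 3 endothelial markers summed to 18.0 and 7.68 CPM in the core and to 5.75 and 0.933 CPM in the invasion zone, nearly all of it PECAM1, and the 3 fibroblast markers to 93.7 and 58.6 CPM in the core and to 38.04 and 13.7 CPM in the invasion zone, all of it PDGFRA with DCN and LUM at 0. The 4 epithelial markers summed to between 127 and 174 CPM, most of it KRT18, with CDH1 at 0.0266 CPM in invasion zone replicate 1 and at 0 counts in the other libraries. Their part in the zone differences given here was not tested.

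HIF is a dimer of an oxygen-labile alpha subunit and a stable beta subunit. Where oxygen is present, the EGLN enzymes hydroxylate prolines of the alpha subunit, VHL recognizes the hydroxylated form as part of a ubiquitin ligase and the protein is degraded, while HIF1AN (factor inhibiting HIF, FIH) hydroxylates an asparagine and blocks the binding of coactivators. The alpha subunits are controlled mainly as proteins, which RNAseq does not measure, whereas EGLN1 and EGLN3 are known as HIF targets in many cells and EGLN2 as a hydroxylase that does not depend on HIF in this way. In bulk RNA, fewer cells with a transcript and less of it per cell cannot be told apart.

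The most negative log2 fold changes, invasion zone over core, were those of ARNT2 (-1.07), EGLN1 (-0.81), EPAS1 (-0.56) and ARNT (-0.39), with n = 2 libraries per zone. In edgeR with all 4 libraries and a count filter, they passed the adjusted p only in the fit that included the replicate number. In the same fit by DESeq2, ARNT did not pass. With no count filter, EGLN1, ARNT2 and EPAS1 also passed without the replicate number (adjusted p = 0.000634, 0.00121 and 0.0432, edgeR), and ARNT did not. In that fit the smallest adjusted p over all genes was 1.17e-74, against 0.128 with the filter (edgeR). The standard error went from 0.39 to 0.26 for ARNT2 and from 0.17 to 0.19 for EGLN1. Passes without the filter are therefore not read as added support. HIF1A overlapped between the zones, and EGLN2 had the only positive log2 fold change (0.26). EGLN3 and HIF3A were barely detected. In 8 of the 10 genes the counts sufficed for a test. The zones did not overlap for 7 of these 8 genes, as for 58.3% of the 15529 genes tested. Of the 8 genes, 6 had the lower values in the invasion zone (30.0% of all genes) and 1 the higher values (28.3%). Among all genes without overlap, 4659 of 9056 were lower in the invasion zone. The median log2 fold change of the 8 genes, invasion zone over core, was -0.31, against -0.01 over all genes.

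The test of edgeR (quasi-likelihood, 2 libraries per zone) without a replicate term called none of the 8 genes at an adjusted p under 0.05 and a 2-fold change, and 0.0% of all genes. Their adjusted p lay between 0.128 for EGLN1 and 0.813 for HIF1A. At an unadjusted p under 0.05 it counted 3 of the 8 genes (EGLN1, EPAS1 and ARNT2) and 24.3% of all genes. When the replicate number was added as a block, 4 of the 8 passed the adjusted p (EGLN1, EPAS1, ARNT2 and ARNT), against 38.8% of all genes, and 1 of them, ARNT2, also changed 2-fold, against 10.5%. A single gene in 8 is near the share over all genes, and nothing particular to these genes is read from either count. DESeq2 without the block passed 1 of the 8, EGLN1, by adjusted p, against 10.8% of all genes, and called 0 of the 8 with the 2-fold minimum (5.71% of all genes), as did limma voom without it. DESeq2 with the block passed 3 by adjusted p (26.3% of all genes) and called 1, ARNT2 (7.59%). The replicate numbers are those of the labels, and whether a number marks a shared spheroid is not stated. P-values therefore measure the spread between these samples, which may be technical. The block leaves each gene very few residual degrees of freedom, so blocked p-values rest largely on the spread shared across genes.

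**Figure D1:**
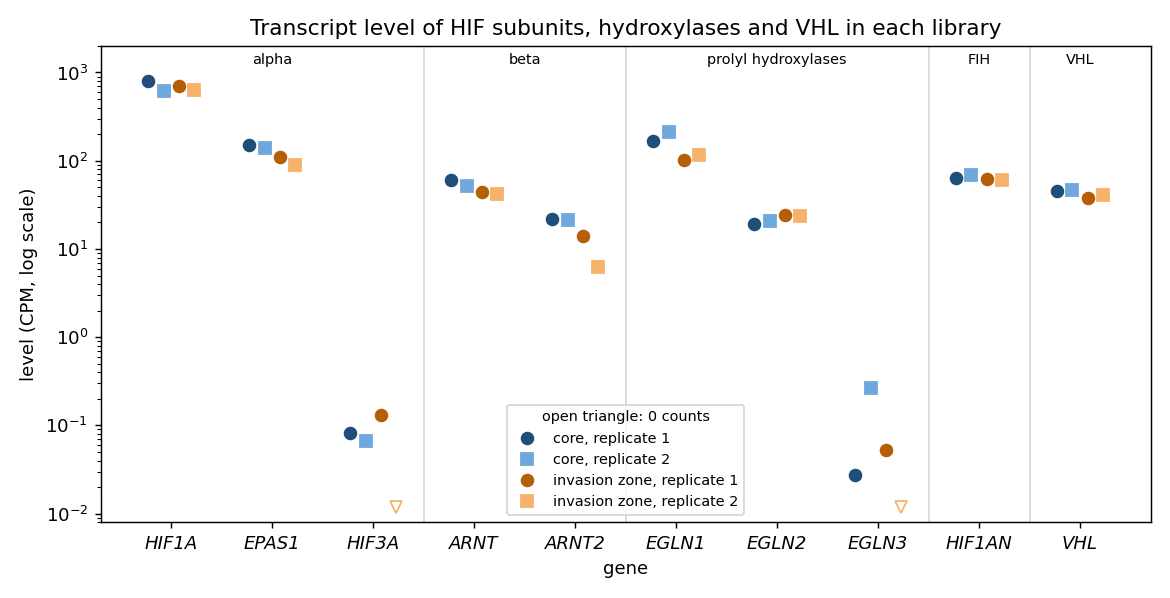
Level in CPM (log axis) of each of the 10 genes in the 4 libraries, with 1 point per library, circles for replicate 1 and squares for replicate 2. HIF1A sits above 600 CPM in every library, EGLN1, EPAS1, ARNT and ARNT2 are lower in both invasion zone libraries, EGLN2 is higher in both, and HIF3A and EGLN3 reach at most 0.267 CPM. Open triangles mark 0 counts.

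The alpha subunits differed from each other in level, and the zones overlapped for HIF1A but not for EPAS1. HIF1A (ENSG00000100644, chromosome 14 of GRCh38, 61695513 to 61748259), the subunit found in most cell types, had 795 and 618 CPM in the core and 712 and 627 CPM in the invasion zone (replicates 1 and 2). The zones overlapped, since the core libraries held both the highest and the lowest value. Core libraries averaged 706 ± 125 CPM (SD, n = 2) and those of the invasion zone 670 ± 60.0 CPM, and the log2 fold change of -0.09 (standard error 0.19, edgeR) turned to 0.13 without core replicate 1 and to 0.0057 without invasion zone replicate 2. Within replicate 1 the invasion zone had 0.896 times the core level (exact 95% interval 0.881 to 0.911) and within replicate 2 1.01 times (0.983 to 1.05). These intervals cover counting error only.

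EPAS1 (ENSG00000116016, chromosome 2, 46293667 to 46386697) encodes HIF-2 alpha, the second oxygen-labile subunit. It had 152 and 138 CPM in the core and 109 and 88.7 CPM in the invasion zone, so that the zones did not overlap. The log2 fold change was -0.56 (standard error 0.17), with an adjusted p of 0.154 in edgeR without the block and 0.000889 with it. The ratio of invasion zone to core was 0.717 (0.689 to 0.747) in replicate 1 and 0.645 (0.598 to 0.695) in replicate 2. The direction was the same with each library left out, between -0.73 and -0.41.

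HIF3A (ENSG00000124440, chromosome 19, 46297042 to 46343433), whose product can act as an inhibitor of the other subunits, had 3 and 1 counts in core libraries and 5 and 0 counts in those of the invasion zone. Its highest level was 0.133 CPM, in invasion zone replicate 1. The summed counts of 4 and 5 gave an invasion zone to core ratio of 1.30 with an exact interval from 0.2798 to 6.55, so that a zone difference could not be read at this depth. Among the alpha subunits, compared per kilobase of exon, HIF1A made up 88.1% and 86.4% of the summed level in the core and 90.2% and 90.9% in the invasion zone, and EPAS1 nearly all of the rest. The ratio of EPAS1 to HIF1A on this scale was 0.135 and 0.157 in the core and 0.108 and 0.0999 in the invasion zone. This ratio does not depend on library scaling, was chosen after the values had been seen and did not overlap between the zones (exact two-sided permutation test, p = 0.333, the smallest p that 2 against 2 libraries allow).

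The beta subunits were both lower in the invasion zone. ARNT (ENSG00000143437, chromosome 1, 150809713 to 150876708), the common partner of the alpha subunits and of the dioxin receptor AHR, had 61.1 and 51.1 CPM in the core and 44.7 and 41.7 CPM in the invasion zone. Its zones did not overlap, but the gap between the lowest core and the highest invasion zone library was smaller than the gap between the core libraries. The log2 fold change was -0.39 (standard error 0.16), with an adjusted p of 0.225 in edgeR without the block and 0.0148 with it, but 0.0724 in DESeq2 with the block. It ranged from -0.52 to -0.22 with each library left out, the smallest size being that without core replicate 1. The ratio within replicates was 0.732 (0.686 to 0.780) and 0.817 (0.728 to 0.917).

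ARNT2 (ENSG00000172379, chromosome 15, 80404350 to 80597933), a paralog best known from neural tissue, had 22.1 and 21.1 CPM in the core and 14.0 and 6.28 CPM in the invasion zone. The core libraries were alike and both invasion zone libraries were lower, replicate 2 by far the most. Its log2 fold change of -1.07 (standard error 0.39) was the largest of the 8 in size, with an adjusted p of 0.182 in edgeR without the block and 0.00519 with it. In limma voom with the block it was -0.93 (adjusted p = 0.00389), short of a 2-fold change. The size rests on invasion zone replicate 2, where ARNT2 had 74 counts, since the log2 fold change was -0.63 without that library and -1.80 without invasion zone replicate 1. Within replicate 1 the ratio of invasion zone to core was 0.634 (0.567 to 0.708) and within replicate 2 it was 0.298 (0.228 to 0.384), intervals that do not meet. On the scale per exonic kilobase, ARNT2 made up 23.1% and 25.6% of the beta subunit transcripts in the core and 20.7% and 11.1% in the invasion zone. The summed alpha subunits exceeded the summed beta subunits 14.2-fold and 13.1-fold in the core and 17.5-fold and 18.4-fold in the invasion zone, again a comparison chosen after the values were seen.

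**Figure D2:**
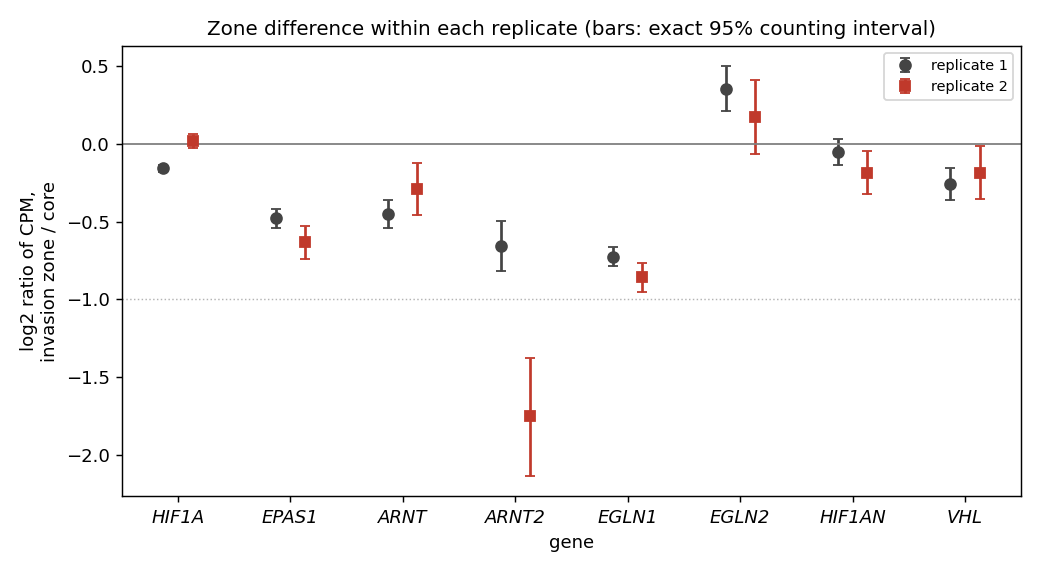
Log2 ratio of CPM, invasion zone over core, within replicate 1 (circles) and replicate 2 (squares) for the 8 genes tested, with exact 95% counting intervals as bars, a solid line at 0 and a dotted line at a 2-fold lower level. EGLN1 and EPAS1 lie below 0 in both replicates with like values, ARNT2 differs between the replicates (-0.66 and -1.75), and EGLN2 lies above 0 in both, its interval in replicate 2 reaching below 0.

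Of the 3 prolyl hydroxylases, the oxygen sensors proper, EGLN1 was lower in the invasion zone in both replicates, EGLN2 passed no test, and EGLN3 was too rare to compare. The windows around their transcription start sites are shown because the genes differed in these values. They run from 250 bases before to 50 bases after the start, from RefSeq on GRCh38.p14, 5′ to 3′ on the strand of the gene, with capitals for the core letters of the hypoxia response element, ACGTG or GCGTG on either strand.
EGLN1, chr1:231422238-231422537, minus strand: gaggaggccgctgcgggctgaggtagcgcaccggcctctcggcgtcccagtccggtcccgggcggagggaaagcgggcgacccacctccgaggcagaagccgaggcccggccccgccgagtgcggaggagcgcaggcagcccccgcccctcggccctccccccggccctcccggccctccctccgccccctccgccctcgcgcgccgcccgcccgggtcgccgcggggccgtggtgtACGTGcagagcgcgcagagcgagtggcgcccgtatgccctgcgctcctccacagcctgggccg
EGLN2, chr19:40798941-40799240, plus strand: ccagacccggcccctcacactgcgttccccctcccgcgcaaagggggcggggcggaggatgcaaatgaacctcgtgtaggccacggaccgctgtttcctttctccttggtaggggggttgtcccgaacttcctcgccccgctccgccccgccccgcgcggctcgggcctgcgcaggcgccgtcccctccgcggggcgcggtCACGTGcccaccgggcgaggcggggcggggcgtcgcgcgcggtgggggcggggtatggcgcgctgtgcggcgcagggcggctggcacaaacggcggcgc
EGLN3, chr14:33951025-33951324, minus strand: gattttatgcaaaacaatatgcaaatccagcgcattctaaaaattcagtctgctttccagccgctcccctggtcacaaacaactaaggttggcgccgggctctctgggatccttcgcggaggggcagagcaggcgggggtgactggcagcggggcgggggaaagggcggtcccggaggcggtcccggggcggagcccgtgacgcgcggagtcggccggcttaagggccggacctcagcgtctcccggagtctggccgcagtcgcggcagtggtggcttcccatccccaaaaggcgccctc
The window of EGLN1 held ACGTG once, at position -13 from the start. The first of the EGLN2 windows held it on both strands at positions -49 and -48, overlapping as the palindrome CACGTG, and the second EGLN2 start had no match. In the window of EGLN3 these letters did not occur. Of all 35116 RefSeq windows of this length, 48.4% held either motif and 21.4% held ACGTG, so a match is common and only describes the sequence. RefSeq windows were found for 8 of the 10 genes, not for ARNT2 and VHL. Outside the prolyl hydroxylases, HIF1A and EPAS1 each held GCGTG once, at -204 and -117, the first HIF3A window held it 3 times, and ARNT and HIF1AN had no match.

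EGLN1 (ENSG00000135766, chromosome 1, 231363751 to 231422287) encodes PHD2, the main hydroxylase of HIF-1 alpha in normal oxygen. It had 168 and 213 CPM in the core and 102 and 117 CPM in the invasion zone, and every invasion zone library lay well below every core library. Core libraries averaged 190 ± 31.6 CPM (SD, n = 2) and those of the invasion zone 109 ± 11.1 CPM, a log2 fold change of -0.81 (standard error 0.17). The adjusted p was 0.128 in edgeR without the block, 0.000162 with it and 0.00746 in DESeq2 without the block, and the change stayed under 2-fold in each. The ratio of invasion zone to core was 0.605 (0.581 to 0.630) in replicate 1 and 0.552 (0.518 to 0.588) in replicate 2. With each library left out in turn, the log2 fold change was between -0.94 and -0.64.

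EGLN2 (ENSG00000269858, chromosome 19, 40798996 to 40808434) encodes PHD1, which is found largely in the nucleus. It had 19.0 and 20.9 CPM in the core and 24.3 and 23.6 CPM in the invasion zone, the reverse order to EGLN1. The log2 fold change was 0.26 (standard error 0.16), and the adjusted p was 0.383 in edgeR without the block and 0.134 with it, so the gene passed neither. Within replicate 1 the ratio was 1.28 (1.16 to 1.41) and within replicate 2 it was 1.13 (0.957 to 1.33), an interval that includes no difference. In the annotation, 2012 of its 6574 exonic bases are shared with other genes of its strand, the RAB4B-EGLN2 readthrough among them. That row has 0 counts in all 4 libraries, and reads on the shared bases may have been dropped from the count of EGLN2.

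EGLN3 (ENSG00000129521, chromosome 14, 33924227 to 34462774) encodes PHD3, in many cells the most strongly hypoxia-induced of the family. It had 1 and 4 counts in core libraries and 2 and 0 counts in those of the invasion zone, at most 0.267 CPM. A count of 0 in invasion zone replicate 2 allows up to 0.254 CPM. The summed counts of 5 and 2 gave an invasion zone to core ratio of 0.416 with an exact interval from 0.0396 to 2.54, so that a zone difference was not detectable at this depth. The gene was left out of the test by the count filter, and its listed start lies far from the RefSeq window shown above.

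Set against each other within each library, which removes any effect of scaling, EGLN1 exceeded EGLN2 per exonic kilobase 10.8-fold and 12.4-fold in the core and 5.11-fold and 6.08-fold in the invasion zone. The log2 ratio was 3.53 ± 0.15 (SD, n = 2) in the core and 2.48 ± 0.18 in the invasion zone, a difference of -1.06 that was -1.08 within replicate 1 and -1.03 within replicate 2. The ratio thus stood at 47.4% and 48.9% of its core value in the invasion zone of the same replicate, and the zones did not overlap (exact two-sided permutation test, p = 0.333, the smallest possible). The level of EGLN2 depends on the exon length chosen, and by the length of the canonical transcript EGLN1 made up 81.0% and 83.0% of the prolyl hydroxylase transcripts in the core and 66.9% and 70.7% in the invasion zone, against 91.5%, 92.5%, 83.6% and 85.9% by all exonic bases. The zone difference of the log2 ratio is the same for both lengths. For EGLN3 against EGLN2, with 0.5 added to each count, the log2 ratio was -9.01 and -6.29 in the core and -8.68 and -9.29 in the invasion zone. These values overlap (exact two-sided permutation test, p = 0.667), and their difference of -1.33 became 0.032 without core replicate 2, the library that holds 4 of the 7 EGLN3 counts.

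**Figure D3:**
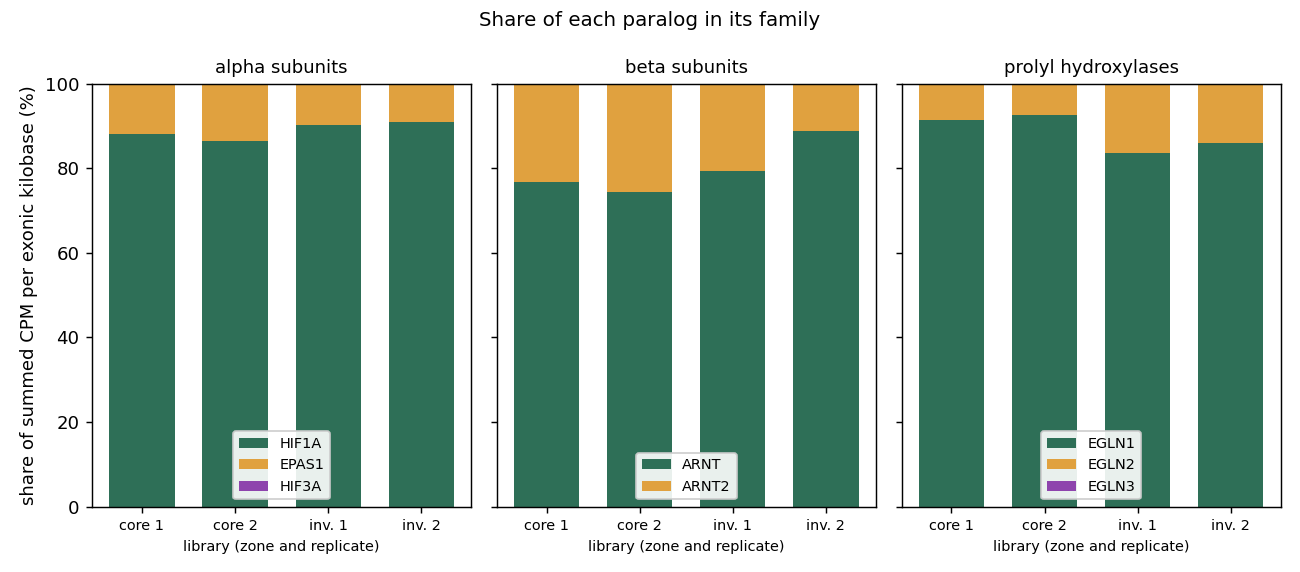
Share (%) of each paralog in the summed CPM per exonic kilobase of its family, as stacked bars for the 4 libraries, with panels for alpha subunits, beta subunits and prolyl hydroxylases. EGLN1 makes up 91.5% and 92.5% of the prolyl hydroxylases in the core and 83.6% and 85.9% in the invasion zone, while HIF3A and EGLN3 are too rare to be seen.

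HIF1AN and VHL had small zone differences that passed no test. HIF1AN (ENSG00000166135, chromosome 10, 100529072 to 100559998) had 64.4 and 68.5 CPM in the core and 62.1 and 60.3 CPM in the invasion zone, just without overlap, and a log2 fold change of -0.13 (standard error 0.13, adjusted p = 0.596 in edgeR without the block and 0.318 with it). Its ratio was 0.964 (0.910 to 1.02) in replicate 1 and 0.880 (0.799 to 0.969) in replicate 2. VHL (ENSG00000134086, chromosome 3, 10141778 to 10153667) had 45.7 and 46.6 CPM in the core and 38.2 and 41.0 CPM in the invasion zone, with a gap between the zones larger than the spread within each. Its log2 fold change was -0.23 (standard error 0.14), with an adjusted p of 0.358 without the block and 0.0952 with it, so that it passed neither test. The ratio of VHL was 0.836 (0.778 to 0.898) in replicate 1 and 0.879 (0.781 to 0.989) in replicate 2.

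Per exonic kilobase, the levels in the core ran from HIF1A (137 ± 24.2 CPM per kilobase, SD, n = 2) through EGLN1 (35.4 ± 5.87), EPAS1 (19.9 ± 1.40), VHL (9.23 ± 0.12), ARNT (8.70 ± 1.10), HIF1AN (4.78 ± 0.21), EGLN2 (3.04 ± 0.20) and ARNT2 (2.79 ± 0.091) to EGLN3 and HIF3A. VHL and ARNT overlapped, as did EGLN3 and HIF3A, and the other neighbours had separate values. In the invasion zone the order of the first 8 was the same. With the canonical transcript length in place of all exonic bases, a comparison chosen after the data were seen, EGLN2 ranked above HIF1AN in the core and also above ARNT and VHL in the invasion zone, while HIF1A, EGLN1 and EPAS1 led in both. Reads shared between genes limit these levels. EGLN1 shares 3004 of its 5381 exonic bases with a gene of its strand that is not a row of the count table, VHL shares 1173 of 5001 with a gene on the opposite strand that is no row either, and HIF1AN shares 325 of 13894 with the opposite strand, where NDUFB8 lies. HIF1A-AS1 and HIF1A-AS2, antisense to HIF1A, had at most 36 counts in a library, against at least 7394 for HIF1A.

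The summed alpha subunits stood to the summed hydroxylases and VHL, per exonic kilobase, as 3.66 and 2.44 in the core and as 4.41 and 3.53 in the invasion zone. The ratio was higher in the invasion zone within each replicate, by 0.27 and 0.53 on the log2 scale, but core replicate 1 exceeded invasion zone replicate 2, so the zones overlapped (exact two-sided permutation test, p = 0.667, where 0.333 is the smallest possible). The difference of 0.40 between the zone means became 0.70 when core replicate 1 was left out, 0.11 when core replicate 2 was, and 0.24 when invasion zone replicate 1 was. HIF1A and EGLN1, the most abundant member of each side, set most of this ratio. The level of EGLN1 relative to HIF1A was 0.202 and 0.329 in the core and 0.137 and 0.179 in the invasion zone on the same scale. The genes whose values over the 4 libraries were most like those of EGLN1, by the distance of log2 CPM from their own mean among 9536 genes, were SERGEF (0.122), PDE4D (0.122), ALDOA (0.126), CCDC102A (0.128) and NOL3 (0.132). SERGEF, the nearest, had 24.7 and 30.7 CPM in the core and 15.4 and 18.9 CPM in the invasion zone. ALDOA, a glycolytic aldolase, had 3582 and 4077 CPM in the core and 2124 and 2498 CPM in the invasion zone. Whether these 5 genes share a function was not tested.

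Other genes of the pathway were described in 6 lists with 74 genes, of which edgeR without the block called 0 in each list. In 20 HIF target genes, all 20 had a negative log2 fold change, as had 7875 of the 15529 genes tested, and their median was -1.26. With the block 15 of the 20 were called lower, where 7.06% of all genes were. None of the 20 was called without the block (18 at an unadjusted p under 0.05, where 24.3% of all genes were). DESeq2 without the block called 15 (3.44% of all genes were lower by that rule). The list was chosen with earlier results of these libraries known, so its direction is not independent evidence. CA9, a carbonic anhydrase and standard hypoxia marker, had 171 and 160 CPM in the core and 13.4 and 3.65 CPM in the invasion zone, and NDRG1, a stress-response gene, had 183 and 121 CPM and 27.7 and 11.6 CPM. The only gene that did not pass the adjusted p with the block was STC2 (log2 fold change -0.07). For 16 of the 20 targets the log2 fold change was more negative than the -0.81 of EGLN1.

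**Figure D4:**
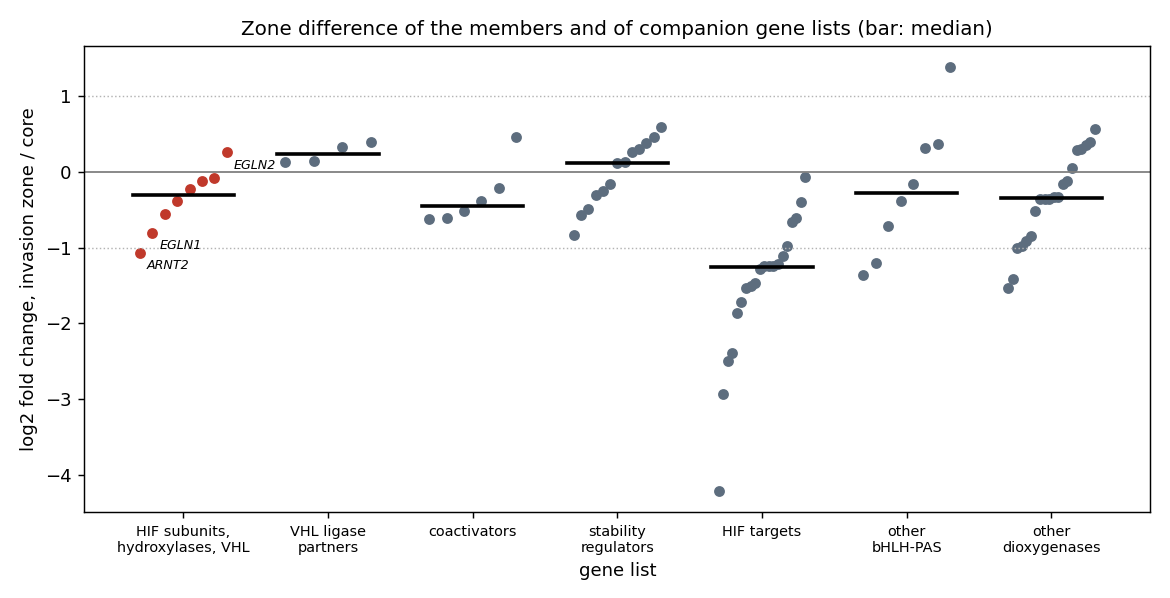
Log2 fold change, invasion zone over core, of the 8 genes tested (first column) and of the tested genes of 6 companion lists, 1 point per gene and a bar at the median, with dotted lines at a 2-fold change. The HIF targets lie lowest (median -1.26), the 8 genes range from -1.07 for ARNT2 to 0.26 for EGLN2, and all 4 VHL ligase partners lie above 0.

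The 4 partners of VHL in its ubiquitin ligase all had positive log2 fold changes (median 0.23), where 7875 of the 15529 genes tested had negative ones. With the block, 2 of the partners passed the adjusted p, where 19.4% of all genes were higher by this rule. TCEB1, the elongin C that binds VHL directly, had 103 and 90.0 CPM in the core and 135 and 120 CPM in the invasion zone, and RBX1, the RING subunit, had 104 and 83.1 CPM and 129 and 108 CPM. VHL itself was lower in both invasion zone libraries. Of 6 coactivators and regulators of HIF transactivation, 4 were lower by adjusted p with the block (19.4% of all genes) and none was higher (median -0.45). CITED2, which competes with HIF for the coactivators p300 and CBP, had a log2 fold change of -0.63, the coactivator NCOA1 -0.61, and the Mediator kinase CDK8 0.46 (adjusted p = 0.0551 with the block, edgeR).

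Of 13 regulators of HIF or hydroxylase stability, 5 were lower and 4 higher by adjusted p with the block (median 0.11), where 19.4% of all genes were lower and 19.4% higher. OS9 (-0.84), a lectin of the endoplasmic reticulum, and USP20 (-0.57), a deubiquitinase, had the most negative log2 fold changes, and the chaperones HSP90AA1 (0.59) and HSP90AB1 (0.46) the most positive. HSP90AA1 had 1045 and 1448 CPM in the core and 1712 and 2054 CPM in the invasion zone, without overlap. Of 11 other bHLH-PAS factors, the family to which HIF belongs, 8 had enough counts, of which 4 were lower and 2 higher by adjusted p with the block (median -0.28), against the same 19.4% of all genes in each direction. AHR, which shares ARNT as its partner, had 101 and 101 CPM in the core and 49.4 and 38.5 CPM in the invasion zone (log2 fold change -1.21), and ARNTL2, a clock partner, had 29.1 and 90.5 CPM in the core and 103 and 207 CPM in the invasion zone. The log2 fold change of ARNTL2 was 1.38 in edgeR without the block (adjusted p = 0.226) and 1.50 with it (adjusted p = 0.000113). NPAS1 (-1.36) and CLOCK (0.36) were the other extremes.

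Of 20 other oxygen-dependent dioxygenases, which use the same cofactors as the EGLN enzymes or sense oxygen by other chemistry, 12 were lower and 2 higher by adjusted p with the block, with a median log2 fold change of -0.34, against 19.4% of all genes in each direction. KDM3A, a histone demethylase that is itself a HIF target, had 119 and 112 CPM in the core and 46.6 and 40.4 CPM in the invasion zone. Its log2 fold change was -1.41 (standard error 0.15), with an adjusted p of 0.128 in edgeR without the block and 5.08e-05 with it. TET1, a DNA demethylase, had 8.39 and 8.08 CPM in the core and 4.42 and 0.933 CPM in the invasion zone, again lowest in invasion zone replicate 2. On the other side stood TET3, with a log2 fold change of 0.56, and KDM4D (0.39), which had less than 1 CPM in every library and passed no test.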

How the data were processed

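RNAseq was measured in 4 libraries of MV3 spheroids, 2 from the core and 2 from the invasion zone. The authors deposited raw counts: ribosomal reads were filtered out with Bowtie, the rest mapped to hg38 by STAR, and reads with a unique position assigned to genes by HTSeq. Not given in the sources used here were tool versions, the annotation release and whether counting used strand. The table has 56306 rows, of which 2 repeats without counts were dropped. Depth was 36363358 and 14983135 counts (core) and 37591782 and 11789243 (invasion zone). Libraries of a zone differed by more than sampling noise (chi-square per degree of freedom 38.5 and 36.3).

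In R 4.3.3, a gene was kept if it reached the equivalent of 10 counts in a library of median size in 2 or more libraries, and 15 counts in all (15529 genes). Zones were compared by the quasi-likelihood test of edgeR 4.0.16 with TMM scaling and Benjamini-Hochberg adjustment, calls needing an adjusted p under 0.05 and a 2-fold change. The standard error is the size of the log2 fold change over the root of the F statistic. Alternatives were DESeq2 1.42.0, limma voom 3.58.1, RLE and upper-quartile scaling, other filters, no fold minimum, each library left out, and the replicate number as a block. Deviations from the zone means were correlated between libraries with the same number (r = 0.58 across genes, over 2 pairs). Both replicate 2 libraries were also the shallower ones, and depth, processing and a shared spheroid cannot be told apart by this correlation. The protocol in the labels takes the core and then its corresponding invasion zone. Blocked values are therefore printed beside the others, although no source says that a number marks a shared spheroid. The code was checked on simulated counts. Their spread between libraries was set and not estimated from these data, so the check does not measure power or error rates here.

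The members and lists were chosen with earlier results of these data known. Named genes are the members, up to 2 at each end of each list, and the 5 nearest to 1 member by distance over the 4 libraries among genes of at least 10 mean CPM. EGLN1 replaced EGLN3 for this after the counts had been seen, because EGLN3 had 7. Ratios within replicates have exact 95% binomial intervals. Exonic bases and positions are those of GENCODE 44 (GRCh38), where 98.1% of the identifiers were found, the elongin genes being listed as TCEB1 and TCEB2. Protein sequences were not used here. Figures were drawn with matplotlib 3.10.9.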

Additional observations from a re-analysis of the deposited data

How the results depend on the processing

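Directions of EPAS1, ARNT, ARNT2, EGLN1, EGLN2, HIF1AN and VHL were the same under every alternative run, and that of HIF1A turned when core replicate 1 (0.13) or invasion zone replicate 2 (0.0057) was left out, within a range from -0.27 to 0.13. The number of the 8 genes called, 0, became 1 (ARNT2) with the replicate block (log2 fold change -1.11), with no count filter (-1.07) and in DESeq2 with the replicate block (-1.16), but not in limma voom with the replicate block (-0.93), and ranged from 0 to 1 with each library left out, where ARNT2 ranged from -1.80 to -0.63. By adjusted p alone, chosen after the data were seen, it was 4 with the block (38.8% of all genes), 1 in DESeq2 (10.8%) and 3 in DESeq2 with the block (26.3%). With no count filter EGLN1, ARNT2 and EPAS1 passed the adjusted p in edgeR, as did 2573 of 32869 genes. The smallest adjusted p over all genes there was 1.17e-74, against 0.128 with the filter (edgeR), so these passes are not read as added support. In limma voom with the block EGLN1, EPAS1, ARNT2 and ARNT passed the adjusted p, as did 6462 of 15529 genes. The replicate block, which takes same-numbered libraries as pairs although no source states it, changed no other call of the 8 genes at the 2-fold minimum in edgeR. Among all genes, 0 higher and 0 lower became 427 and 846 with no count filter, 530 and 1097 with the block, 353 and 534 in DESeq2, 428 and 750 in DESeq2 with the block, 575 and 1088 in limma voom with the block, and 13 to 632 and 125 to 1137 with each library left out. Leaving out core replicate 1 gave 13 and 125, core replicate 2 gave 632 and 665, invasion zone replicate 1 gave 576 and 1137, and invasion zone replicate 2 gave 212 and 347. Genes called in the 6 lists, 0, became 20, 21, 17, 20 and 20 under these 5 settings in the same order, and 12 to 23 with each library left out. The cause of these differences was not tested. The EGLN3 to EGLN2 difference ranged from -2.70 to 0.032 with each library left out, its sign turning without core replicate 2. A library left out leaves its zone with 1, assumed to vary like the other zone. The zone comparison of EGLN3 and HIF3A is limited by their low counts, 7 and 9 in all.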
